A study of Mus musculus with 8 samples.

Results

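The genes described here encode the oxidative phosphorylation chain of the mitochondrion and were taken by symbol from the deposited tables of single yolk sac cells. Symbols starting with Nduf (followed by a, b, c, s or v), Cox4 to Cox8, Uqcr or Atp5, together with Sdha, Sdhb, Sdhc and Sdhd, gave 90 nuclear genes, and the protein genes of the mitochondrial genome gave 13, so 103 of the 23091 listed genes were members. The samples were wild-type C57BL/6N mouse embryos at embryonic day 9.5, from whose extraembryonic yolk sac cells positive for CD45 (the pan-leukocyte surface protein) were sorted singly into plate wells. All 8 libraries were of batch A, with the same number of wells: 4 carried the label A1 and A2 (written A1/A2 here) and 4 the label EMP. The titles use the same library numbers under both labels without saying what they mark. The main tests between A1/A2 and EMP did not pair libraries by these numbers. All groups were untreated wild type. A1 and A2 cells are successive precursors of yolk sac macrophages, A1 being known as Kit-positive and A2 as Cx3cr1-positive, and EMP (erythromyeloid progenitors) are the cells from which they arise. No label gives the number of embryos, so p-values measure the spread between these libraries, which may be technical.

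The chain carries electrons from complexes I and II through complex III to complex IV, which reduces oxygen, and the proton gradient built on the way drives complex V, the ATP synthase. Complex II is encoded in the nucleus alone, while the other complexes combine nuclear subunits with a few hydrophobic core subunits made from the circular mitochondrial genome. Mitochondrial genes are transcribed as long precursors from both strands of that circle and are then cut apart, mostly at the transfer RNAs that lie between them. Blood progenitors and macrophages are known to differ in how far they rely on this chain or on glycolysis.

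By complex, the nuclear members comprised 36 genes of complex I, 7 Ndufaf assembly factors of complex I, 4 genes of complex II, 8 of complex III, 17 of complex IV, 15 of complex V, the complex V-related genes Atp5s and Atp5sl (2 genes) and Cox7a2l, a factor that joins complexes into supercomplexes. Ndufa4 and Ndufa4l2, named after complex I, were counted with complex IV, where the Ndufa4 protein resides. The mitochondrial members comprised 7 genes of complex I, mt-Cytb of complex III, 3 genes of complex IV and 2 of complex V. Of the 103 members, 99 were listed in all 8 tables, and 5 had fewer than 100 transcripts over all kept wells. These 5 were the tissue-restricted isoform genes Ndufa4l2, Cox7b2, Cox4i2, Cox6a2 and Cox6b2, and they did not pass the filter on low counts in the comparison of the libraries.

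Neighbouring mitochondrial genes overlap, and a read at the end of one can lie within the next. The stretches below are the mouse mitochondrial sequence (GRCm38, chromosome M) of 3 overlaps between members, with the overlapping bases in capitals; mt-Atp6 and mt-Co3 also share the single base chrM:8607. They are shown because mt-Atp8 and mt-Nd4l, whose open reading frames run into those of mt-Atp6 and mt-Nd4, have far fewer counts than these partners. The annotation places mt-Atp8 and mt-Atp6 on the plus strand with 43 shared bases at chrM:7927-7969, and mt-Nd4l and mt-Nd4 with 7 shared bases at chrM:10167-10173. The mt-Nd5 and mt-Nd6 genes lie on opposite strands and share 14 bases at chrM:13552-13565.
mt-Atp8 and mt-Atp6: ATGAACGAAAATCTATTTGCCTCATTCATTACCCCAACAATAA
mt-Nd4l and mt-Nd4: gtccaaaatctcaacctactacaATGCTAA
mt-Nd5 and mt-Nd6: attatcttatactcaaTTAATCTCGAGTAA

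Wells with at least 1000 transcripts were kept, 568 in A1/A2 libraries and 655 in EMP libraries, of 1536 in all. Median totals were 3763 to 9412 transcripts in A1/A2 libraries and 16856 to 21921 in EMP libraries, so the EMP wells were deeper. Defining markers of macrophages (10 of 10 detected in both groups) summed to 8.40 to 12.0 per 10000 transcripts in A1/A2 libraries and 0.548 to 1.01 in EMP libraries, and those of progenitors (8 of 8) to 1.02 to 2.17 in A1/A2 libraries and 2.57 to 5.21 in EMP libraries. Visceral endoderm markers such as Apoa1, of a cell type that CD45 sorting should leave out, were detected in full (10 of 10) in both groups and summed to 83.1 to 148 per 10000 in A1/A2 libraries and 146 to 223 in EMP libraries. Their part in the results was not tested. The same well numbers recur in every library, and 0 pairs of libraries held identical values.

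The 13 mitochondrial genes together took 1159, 1231, 1362 and 1280 of every 10000 transcripts in A1/A2 libraries 1 to 4, against 1618, 1606, 1535 and 1563 in EMP libraries 1 to 4. Every A1/A2 library lay below every EMP library, with means of 1258 ± 85.2 in A1/A2 and 1580 ± 38.5 in EMP (SD, n = 4 each). The 90 nuclear genes took 159.0, 159.5, 154.9 and 161.0 per 10000 in A1/A2 libraries and 147.9, 162.2, 142.4 and 158.9 in EMP libraries. These ranges overlapped, and the means of 158.6 ± 2.58 in A1/A2 and 152.8 ± 9.28 in EMP (SD, n = 4 each) differed by less than the spread of the EMP libraries. The ratio of the mitochondrial to the nuclear sum was 7.29, 7.72, 8.79 and 7.95 in A1/A2 libraries and 10.9, 9.90, 10.8 and 9.84 in EMP libraries, without overlap. No test was made on these sums, because the members were chosen with earlier results known.

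**Figure D1:**
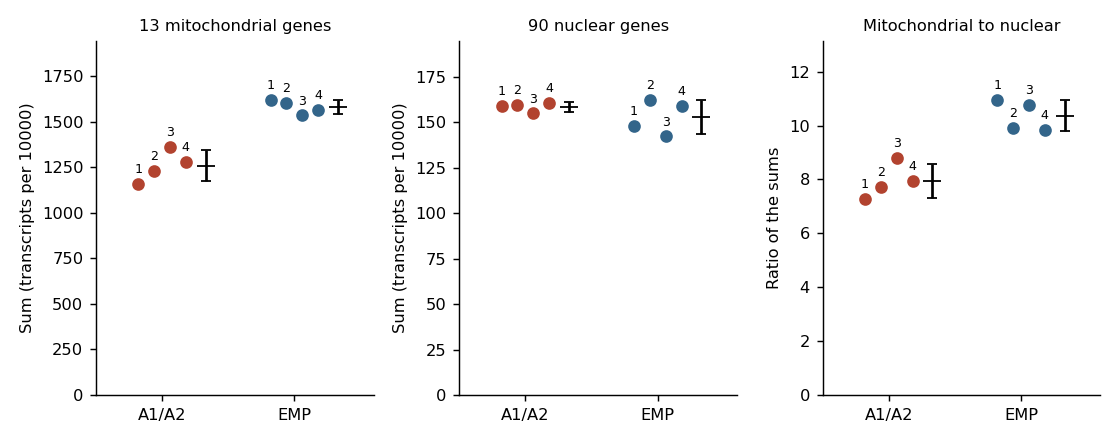
Summed transcripts of the 13 mitochondrial and 90 nuclear members per 10000 transcripts, and the ratio of the sums, in each library (points, numbered by library) with the mean and SD of 4 libraries beside them. The mitochondrial sum was 1159 to 1362 in A1/A2 libraries and 1535 to 1618 in EMP libraries, while the nuclear sums overlapped.

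Both sums moved with the number of transcripts in a well. Within each library the mitochondrial share fell and the nuclear share grew with the total of the well, with Spearman's rho of -0.15 to -0.57 for the mitochondrial share and 0.24 to 0.50 for the nuclear share over the 8 libraries. These are descriptions across wells that share a library, and a share and its total come from the same counts. In A1/A2 libraries the mitochondrial sum was 2022, 1818, 2115 and 2234 per 10000 in wells from 1000, 2000, 5000 and 10000 transcripts, and 1201 and 1099 in wells from 20000 and 50000 transcripts (means of 4 libraries). In EMP libraries the same bins gave 2286, 2606, 2390, 1747, 1470 and 1541 per 10000. The step to lower values therefore lay at 20000 transcripts in A1/A2 and at 10000 in EMP libraries. The nuclear sum ran the other way, with 127.2, 113.9, 100.1, 107.9, 157.0 and 172.3 per 10000 in A1/A2 libraries and 122.1, 100.4, 106.3, 141.1, 156.7 and 156.7 in EMP libraries.

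Compared within bins, the A1/A2 mean of the mitochondrial sum was below the EMP mean in each bin except that from 10000 to 20000 transcripts, where it was 487.3 per 10000 higher. The libraries of the 2 groups did not overlap in the bin from 2000 and in the bin from 50000 transcripts, where the difference of the means, A1/A2 minus EMP, was -788.3 and -441.4 per 10000. For the nuclear sum the libraries failed to overlap only in the bin from 2000 transcripts. With every well thinned to 1000 transcripts, which weights wells equally, the mitochondrial sum was 1707 ± 164 in A1/A2 and 1881 ± 125.5 in EMP libraries (SD, n = 4 each), and the libraries overlapped. In wells of at least 20000 transcripts it was 1123 ± 97.1 in A1/A2 and 1516 ± 60.2 in EMP libraries, without overlap. There the nuclear sum of 167.0 ± 2.07 in A1/A2 also lay above that of 156.5 ± 9.78 in EMP without overlap, by a gap far smaller than the EMP SD. The totals in these shares include the mitochondrial transcripts. Over all kept wells the nuclear difference, A1/A2 minus EMP, was 5.76, and -7.00 per 10000 transcripts neither mitochondrial nor globin. Wells with more than 25% mitochondrial transcripts numbered 19, 17, 14 and 23 in A1/A2 libraries and 38, 22, 22 and 38 in EMP libraries. A sum over a library cannot tell a different mix of wells from a different level per cell.

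**Figure D2:**
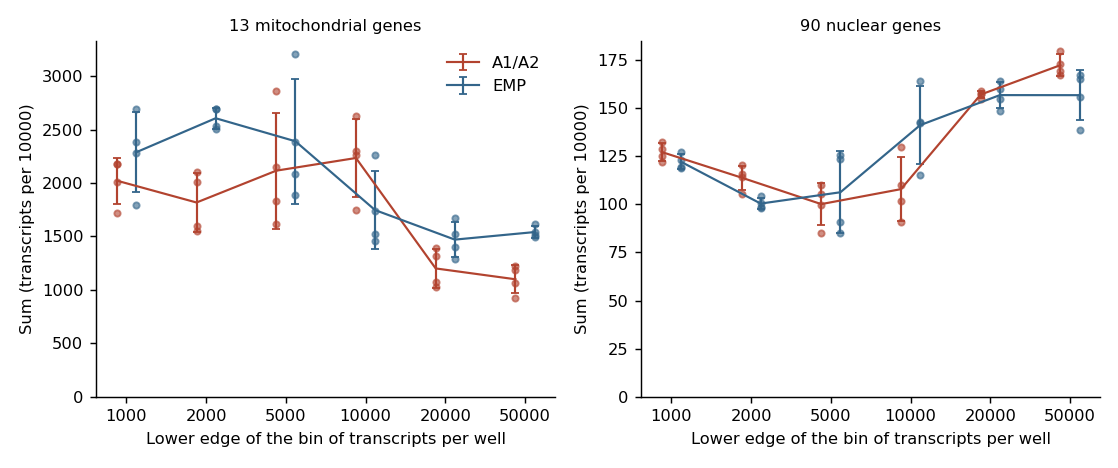
Mitochondrial and nuclear sums per 10000 transcripts by the total of the well; points are libraries, lines join the means of 4 libraries and bars are SD. The mitochondrial sum was 1099 in A1/A2 and 1541 in EMP libraries from 50000 transcripts, and in the bin from 10000 transcripts the order of the means was the other way.

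Tested gene by gene on the summed counts of the libraries, with values as counts scaled to a common library size (CPM, TMM-corrected), 8 of 13 mitochondrial genes fell in A1/A2 against EMP libraries and 0 rose (edgeR quasi-likelihood test, Benjamini-Hochberg adjusted p under 0.05). Over all 11144 genes tested, 32.8% passed in either direction, 17.3% higher and 15.4% lower. The complex I genes led: mt-Nd2, a membrane-arm subunit of the proton pump, had 11529, 12376, 13020 and 11072 CPM in A1/A2 libraries and 18011, 18519, 17745 and 14999 CPM in EMP libraries, a fold of 0.693 (log2 -0.53, SE 0.09, adjusted p 0.0012). For mt-Nd5, another antiporter-like subunit, the libraries had 8022, 9211, 8080 and 9060 CPM in A1/A2 and 12682, 13700, 10677 and 11875 CPM in EMP, a fold of 0.702 (log2 -0.51, SE 0.09, adjusted p 0.0019). For both genes every A1/A2 library lay below every EMP library.

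The other mitochondrial genes that fell were mt-Nd1 at 0.751-fold, mt-Co2, which takes up electrons from cytochrome c, at 0.775-fold, mt-Nd4 at 0.781-fold, mt-Cytb, the core of complex III, at 0.785-fold, mt-Nd3 at 0.794-fold and mt-Co1, the catalytic subunit of complex IV, at 0.810-fold, with adjusted p of 0.0031 to 0.029. The libraries of mt-Co1 overlapped, with 14403 to 18892 CPM in A1/A2 and 18549 to 21946 CPM in EMP. Those not past the threshold were mt-Atp6 (0.847-fold, adjusted p 0.072), mt-Co3 (0.861-fold, 0.062), mt-Nd4l (0.885-fold, 0.175), mt-Nd6 (log2 0.41, 0.14) and mt-Atp8 (log2 0.14, SE 0.42, 0.82). The mitochondrial 16S ribosomal RNA gene mt-Rnr2, no member, fell as well (log2 -0.37, SE 0.10, adjusted p 0.012), while mt-Rnr1 did not pass (log2 -0.53, adjusted p 0.061).

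The calls on mitochondrial genes depended on which wells entered the sums. In wells of at least 20000 transcripts, 11 of 13 fell and 0 rose, where 3575 of 10821 genes tested passed in all (1874 higher, 1701 lower), and with every well thinned to 1000 transcripts 0 passed, where 128 of 2320 genes tested passed in all (94 higher, 34 lower) and 2 mitochondrial genes had an unadjusted p under 0.05. Leaving out wells with over 3 times their library's median total turned the direction, with 6 of 13 higher and 0 lower in A1/A2, where 598 of 9234 genes were higher and 188 lower. That setting left wells with medians of 2342 to 3536 transcripts in A1/A2 and 12387 to 18796 in EMP libraries. Wells of 5000 to 50000 transcripts gave 1 higher and 0 lower, where 956 of 9573 genes were higher and 608 lower.

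**Figure D3:**
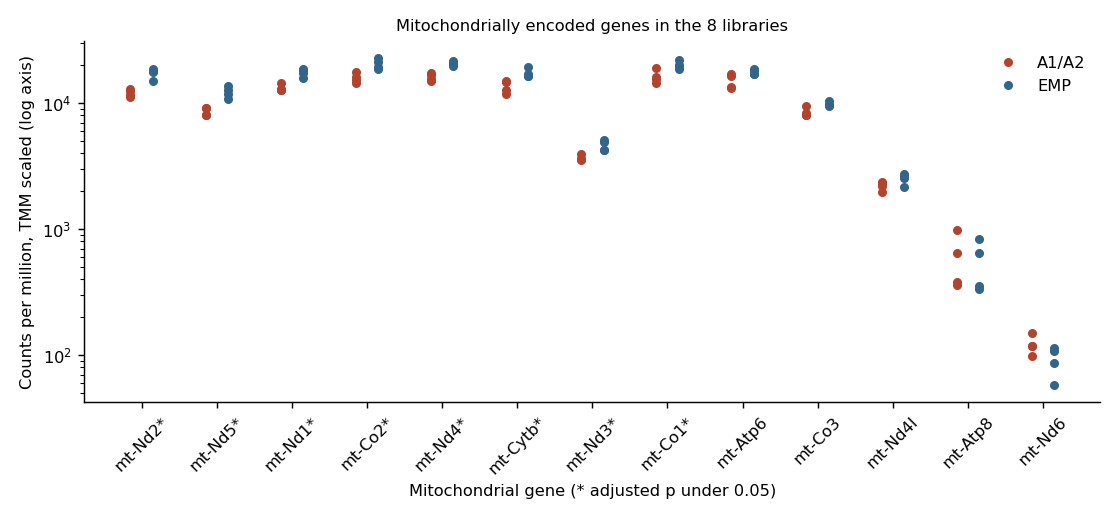
CPM (log axis) of the 13 mitochondrial genes in the 4 A1/A2 and 4 EMP libraries, ordered by log2 fold change; an asterisk marks an adjusted p under 0.05. The mt-Nd2 libraries had 11072 to 13020 CPM in A1/A2 and 14999 to 18519 CPM in EMP, and the libraries of mt-Atp8 spread over 332 to 982 CPM without separating the groups.

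The mix among mitochondrial transcripts differed little. As a share of the mitochondrial sum, 11 of 13 genes overlapped between the groups. The exceptions were mt-Co3, at 6.73% ± 0.25 in A1/A2 and 6.11% ± 0.28 in EMP libraries, and mt-Nd6, the gene of the opposite strand, at 0.10% ± 0.02 in A1/A2 and 0.06% ± 0.02 in EMP libraries (SD, n = 4 each). The mt-Atp8 gene varied most between libraries of a group, with 361, 384, 651 and 982 CPM in A1/A2 and 646, 332, 356 and 829 CPM in EMP. Its partner on the same transcript, mt-Atp6, stayed at 13137 to 16956 CPM in A1/A2 and 16869 to 18500 CPM in EMP. The counts are of 3' ends, and the authors' rule for reads over shared bases is not known here, so the levels of mt-Atp8 and mt-Nd4l are uncertain.

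Among nuclear members, 18 of 85 tested rose in A1/A2 against EMP libraries and 3 fell, against 17.3% and 15.4% of all genes, so the share of members that rose, 21.2%, was near that of all genes, and the share that fell was 3.53%. The median log2 fold change was 0.06 over nuclear members, -0.33 over mitochondrial members and -0.02 over all genes. In complex I, the entry point of electrons from NADH, 7 of 36 genes rose and 0 fell. Ndufa13, a subunit also known as GRIM-19, had 84.1, 85.1, 100.6 and 102.8 CPM in A1/A2 libraries and 64.6, 63.6, 55.2 and 65.2 CPM in EMP libraries, without overlap (log2 fold change 0.59, SE 0.11, adjusted p 0.0017). Ndufb7 (1.44-fold), Ndufs8 (1.39-fold), which binds iron-sulfur clusters, Ndufb2 (1.38-fold) and Ndufb8 (1.37-fold) were higher, with adjusted p of 0.0077 to 0.035. The libraries of Ndufb2 overlapped. Of the 7 assembly factors, Ndufaf6 fell, with 32.2, 44.1, 28.3 and 36.6 CPM in A1/A2 libraries and 44.6, 65.5, 53.9 and 45.4 CPM in EMP libraries, a fold of 0.678 (log2 -0.56, SE 0.16, adjusted p 0.019). Its groups stood apart by less than 1 CPM.

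The subunits of complex II, which is also the succinate dehydrogenase of the tricarboxylic acid cycle, did not move together. The iron-sulfur subunit Sdhb rose, with 96.3, 93.1, 98.8 and 95.1 CPM in A1/A2 libraries and 71.1, 64.9, 64.6 and 74.5 CPM in EMP libraries, a fold of 1.39 (log2 0.48, SE 0.09, adjusted p 0.0021). The flavoprotein Sdha fell, with 144.7, 157.1, 157.5 and 153.9 CPM in A1/A2 and 172.0, 199.2, 189.1 and 179.0 CPM in EMP, a fold of 0.830 (log2 -0.27, SE 0.08, adjusted p 0.028). In both genes the groups did not overlap. The membrane anchors did not pass, with Sdhc at 0.916-fold (adjusted p 0.39) and Sdhd at 1.37-fold (adjusted p 0.105).

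In complex III, 3 of 8 genes rose and 0 fell. Uqcr11, a small peripheral subunit, had the highest log2 fold change among the nuclear members, with 101.8, 81.5, 112.7 and 101.7 CPM in A1/A2 libraries and 76.1, 65.7, 48.6 and 58.9 CPM in EMP libraries, a fold of 1.59 (log2 0.67, SE 0.14, adjusted p 0.0041), without overlap. In complex IV, 3 of 12 tested genes rose, among them Cox4i1, the ubiquitous form of a subunit that binds adenine nucleotides, with 314.1, 326.7, 373.4 and 370.1 CPM in A1/A2 and 262.4, 292.3, 229.3 and 225.9 CPM in EMP (1.37-fold, log2 0.45, SE 0.11, adjusted p 0.0068). In complex V, 4 of 15 rose: Atp5j2 had 1.44-fold (log2 0.52, SE 0.10, adjusted p 0.0018), with 139.6 to 178.1 CPM in A1/A2 and 103.8 to 117.7 CPM in EMP, and Atp5h, Atp5l and Atp5e rose at 1.40-fold, 1.29-fold and 1.24-fold. The supercomplex factor Cox7a2l fell, with 140.4, 145.5, 136.6 and 139.1 CPM in A1/A2 and 170.9, 206.6, 166.2 and 178.5 CPM in EMP, a fold of 0.778 (log2 -0.36, SE 0.09, adjusted p 0.010), without overlap.

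The 5 nuclear members with the most transcripts (3'-end counts, which do not scale with transcript length) did not pass the threshold. Atp5g3, 1 of 3 genes for the same c subunit of the ATP synthase rotor, had 1007 ± 80.6 CPM in A1/A2 and 1204 ± 218 CPM in EMP libraries (SD, n = 4 each, adjusted p 0.12). Its paralogs Atp5g1, at 531 ± 42.2 CPM in A1/A2 and 537 ± 29.8 CPM in EMP, and Atp5g2, at 427 ± 38.9 CPM in A1/A2 and 473 ± 60.5 CPM in EMP, did not pass either (adjusted p 0.89 and 0.30). The catalytic subunits Atp5b and Atp5a1 had folds of 0.963 and 0.972, and Cox7c and Cox8a folds of 0.996 and 0.861. Of the paralog pairs of complex IV, Cox7a2 rose (1.30-fold, adjusted p 0.026) while its muscle form Cox7a1, at 3.3 ± 1.2 CPM in A1/A2 and 5.6 ± 2.1 CPM in EMP, did not pass. Cox6a1 had 437.6 ± 11.9 CPM in A1/A2 and 437.4 ± 57.2 CPM in EMP, and Cox6b1 and Ndufa4 had folds of 0.907 and 1.03. The counterparts Cox4i2, Cox6a2, Cox6b2 and Ndufa4l2 had 10, 17, 17 and 2 transcripts in all A1/A2 wells and 2, 0, 32 and 3 in all EMP wells.

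Of the nuclear calls, those on Atp5h and Atp5l touch a near-identical copy. The last 400 bases of transcripts of 16 of the 90 nuclear members matched another gene over at least 100 bases at 95% identity or more in the GENCODE transcripts, and 3 of these copies are listed in the tables. The gene Gm10250 held 188% of the counts of Atp5h itself. Summed with it, Atp5h had 364.5 ± 32.2 CPM in A1/A2 and 345.9 ± 29.8 CPM in EMP libraries (SD, n = 4 each), and the ranges of 338.9 to 411.5 in A1/A2 and 305.4 to 376.5 in EMP overlapped. The call on Atp5h alone is therefore uncertain. Gm5426 held 13.6% of the counts of Atp5l and rose with it (log2 1.35, SE 0.21, adjusted p 0.00083), and the sum stayed apart, with 251.3 to 297.2 CPM in A1/A2 and 156.5 to 223.9 CPM in EMP.

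Nuclear calls also depended on the wells: 19 of 85 members rose and 4 fell in wells of at least 20000 transcripts, 7 rose and 2 fell in wells of 5000 to 50000, 0 rose and 1 fell with wells thinned to 1000 (of 61 tested), and 0 passed without wells above 3 times the median total, where 9 had an unadjusted p under 0.05. The counts over all genes in these settings are those given with the mitochondrial calls. Leaving out EMP library 3 or A1/A2 library 4 left 10 and 11 nuclear members higher in place of 18. The libraries of the groups did not overlap for 18 nuclear members higher and 6 lower in A1/A2 and for 8 mitochondrial members lower. The corresponding shares of all genes were 17.4% higher and 14.7% lower.

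Promoters of the members were read for the motifs of nuclear respiratory factors, which are known to bind many promoters of this pathway. In RefSeq (GRCm38.p6), 75 of the 90 nuclear members had a promoter window of 250 bases before to 50 after the start, 3 of them found by an older symbol. The NRF1 motif is GCGCA, 1 free base and GCGC, searched like the others on both strands with overlaps between motifs allowed. A gene was counted once if any of its windows held the motif. The NRF1 motif was found for 19 of the 75 members (25.3%) and for 5.19% of all 27025 genes with a window. The GABPA (NRF2) motif CCGGAAGT was found for 5 members (6.67%, against 4.31% of all genes) and the YY1 motif AAGATGGCG for 8 (10.7%, against 1.64%). Of the members called in A1/A2 against EMP libraries, 2 of 17 had the NRF1 motif, and of the others 17 of 58 did. Windows around matches in Sdha and Uqcr11, which changed between the libraries, are shown as examples with the motif in capitals. They run in the direction of the gene and at most up to the start site. A further NRF1 match in Sdha (window chr13:74350256-74350325) is not shown. The NRF1 and GABPA matches in Atp5h, also called, are not shown either.
Sdha, NRF1 (chr13:74350299-74350368, minus strand): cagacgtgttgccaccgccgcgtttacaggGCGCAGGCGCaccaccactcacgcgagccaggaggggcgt
Sdha, NRF1 (chr13:74350241-74350280, minus strand): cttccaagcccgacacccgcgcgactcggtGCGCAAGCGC
Uqcr11, GABPA (chr10:80406850-80406917, minus strand): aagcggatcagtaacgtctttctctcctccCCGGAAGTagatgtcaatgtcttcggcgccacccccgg

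Wells were next grouped by the transcripts they held, in classes that exclude each other: globin-rich, high Apoa1, Cx3cr1 without Kit, Kit without Cx3cr1 or Cdh5 (an endothelial cadherin), Cdh5 alone, and unclassed. Cx3cr1 wells of A1/A2 libraries (151 wells) were compared with Kit wells of EMP libraries (150 wells). They stand in for the macrophage precursor and the progenitor, but 1 transcript of the gene was enough for a class. Median totals were 28888 to 36876 in the Cx3cr1 wells and 23736 to 38494 in the Kit wells, but shallow wells were more common among the Cx3cr1 wells. Of these, 14 wells had totals of 1000 to 2000, 20 of 2000 to 5000 and 13 of 5000 to 10000, against 0, 3 and 5 Kit wells. The mitochondrial sum was 1101 ± 118 per 10000 in Cx3cr1 wells and 1418 ± 43.3 in Kit wells, the nuclear sum 163.0 ± 3.56 in Cx3cr1 wells and 159.9 ± 7.38 in Kit wells, and the ratio 6.77 ± 0.81 in Cx3cr1 wells and 8.88 ± 0.25 in Kit wells (SD, n = 4 libraries each). The mitochondrial ranges of 940 to 1224 in Cx3cr1 wells and 1358 to 1453 in Kit wells did not overlap. Macrophage markers summed to 11.8 to 17.3 per 10000 in Cx3cr1 wells and 0.367 to 0.709 in Kit wells. Progenitor markers summed to 1.02 to 1.43 in Cx3cr1 wells and 5.18 to 9.15 in Kit wells. Endoderm markers summed to 51.3 to 113 in Cx3cr1 wells and 89.9 to 186 in Kit wells, above the defining markers of either class. The part of the endoderm transcripts in the results was not tested.

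In this comparison 7 of 13 mitochondrial genes fell and 0 rose, and 14 of 84 nuclear members rose and 3 fell, where 24.0% of all 9237 genes tested passed, 14.1% higher and 9.83% lower. The libraries are those of the first comparison, so its values are not independent of it. The mt-Nd2 gene had 9191, 11280, 11856 and 9968 CPM in Cx3cr1 wells and 16190, 16242, 15625 and 13839 CPM in Kit wells, a fold of 0.683 (log2 -0.55, SE 0.10, adjusted p 0.0007). Every Cx3cr1 value lay below every Kit value. The genes mt-Nd5, mt-Nd1, mt-Nd3, mt-Co2, mt-Cytb and mt-Nd4 fell at 0.713-fold to 0.782-fold. The values of mt-Co1 (0.842-fold, adjusted p 0.10), mt-Atp6 (log2 -0.27, 0.082) and mt-Co3 (log2 -0.20, 0.16) did not pass. In wells of at least 20000 transcripts, 10 of 13 fell, where 1195 of 9063 genes were higher and 896 lower. With wells thinned to 1000 transcripts 0 passed, where 24 of 479 genes were higher and 7 lower, and with wells of 5000 to 50000 transcripts 0 passed, where 758 of 7230 genes were higher and 579 lower. Without wells with over 3 times their library's median total 2 were higher, where 239 of 5608 genes were higher and 85 lower, with Cx3cr1 wells then at medians of 3595 to 7570 transcripts and Kit wells at 21859 to 30833.

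Of the nuclear members, 6 were higher in place of 14 without A1/A2 library 4 or EMP library 3, 7 without A1/A2 library 3, and 9 without A1/A2 library 1 or EMP library 2. Of the nuclear genes in the Cx3cr1 wells, Uqcr11 rose at 1.74-fold, with 98.6, 86.7, 118.6 and 107.9 CPM against 80.8, 53.5, 48.0 and 54.1 CPM in Kit wells (log2 0.80, SE 0.17, adjusted p 0.0029). Sdhb rose at 1.48-fold, with 95.5, 111.3, 120.3 and 99.975 CPM in Cx3cr1 wells and 74.1, 60.0, 73.6 and 80.2 CPM in Kit wells (adjusted p 0.0062). Ndufb7, Ndufs8, Ndufb10 and Ndufa13 of complex I rose at 1.43-fold to 1.49-fold, and Cox4i1 and Atp5j2 at 1.41-fold and 1.40-fold. Lower in Cx3cr1 wells were Ndufaf6 (0.614-fold), Cox7a2l (0.756-fold) and the complex I subunit Ndufc2, with 208.1, 196.6, 196.7 and 221.4 CPM in Cx3cr1 wells and 235.0, 281.0, 263.7 and 279.5 CPM in Kit wells (0.778-fold, adjusted p 0.018). Sdha had 0.837-fold and did not pass (log2 -0.26, adjusted p 0.080).

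**Figure D4:**
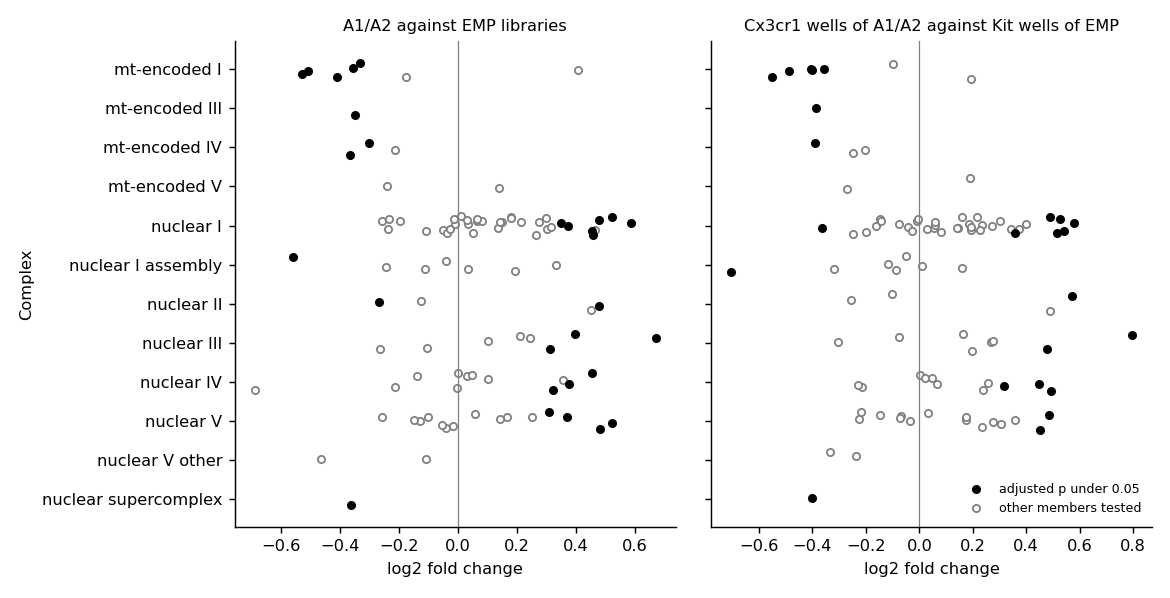
Log2 fold change of each member tested, by complex, for A1/A2 against EMP libraries (left) and Cx3cr1 wells of A1/A2 against Kit wells of EMP (right); filled points have an adjusted p under 0.05. Filled mitochondrial points lie below 0 in both panels, and filled nuclear points lie mostly above 0.

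Wells with at least 20 Apoa1 transcripts per 10000 occur in both sorts, 166 in A1/A2 and 282 in EMP libraries, and were compared between them. Their endoderm markers summed to 209 to 249 per 10000 in A1/A2 and 224 to 284 in EMP, but macrophage markers were 2.83 to 5.96 in A1/A2 and 0.275 to 0.480 in EMP, so the wells were not of a single kind, and median totals were 4895 to 15654 in A1/A2 and 28301 to 46670 in EMP. Of 85 nuclear members 19 rose and 1 fell, and of 13 mitochondrial members 2 fell, where 9.40% of 9592 genes passed, 6.34% higher and 3.07% lower. Ndufb2 rose at 1.74-fold (log2 0.80, adjusted p 0.012), Uqcr11 at 1.64-fold, Ndufa13 at 1.64-fold and Ndufs8 at 1.61-fold. Ndufa13 had 98.7, 95.2, 109.2 and 119.7 CPM in A1/A2 and 64.3, 64.6, 53.3 and 77.1 CPM in EMP, without overlap. Ndufaf6, mt-Nd5 and mt-Nd2 fell at 0.692-fold, 0.744-fold and 0.745-fold, while Sdhb (1.27-fold, adjusted p 0.078) and Sdha (0.817-fold, adjusted p 0.065) did not pass. These wells come from the libraries compared above. Without A1/A2 library 1 or library 4, 12 and 11 members passed in place of 22, of which 10 each were nuclear and higher, in place of 19. Without A1/A2 library 3, 12 nuclear members were higher. Without wells above 3 times the median total, 0 nuclear members passed, and 1 mitochondrial member passed and was higher in A1/A2.

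Within EMP libraries, high Apoa1 wells (at least 50 per 10000) had a mitochondrial sum of 1518 ± 154 per 10000. Their nuclear sum was 171.0 ± 0.38 (SD of both, n = 3 libraries with at least 5 such wells). Kit wells had 1418 ± 43.3 and 159.9 ± 7.38 (SD, n = 4), with library 3 included. In libraries 1, 2 and 4 the nuclear sum was 170.6, 171.2 and 171.4 in high Apoa1 wells and 157.5, 168.4 and 162.5 in Kit wells. In library 3, with 3 high Apoa1 wells, it was 130.5 in these and 151.0 in Kit wells. Of 84 nuclear members 2 rose and 0 fell, and of the mitochondrial members 0 passed (0 with an unadjusted p under 0.05), where 21.1% of 7795 genes passed, 10.7% higher and 10.4% lower. Cox5a, a matrix-side subunit of complex IV, had 502.6, 312.2 and 437.3 CPM in high Apoa1 wells of libraries 1, 2 and 4 and 262.4, 268.2 and 268.7 CPM in Kit wells of the same libraries (1.53-fold, log2 0.61, SE 0.17, adjusted p 0.011), without overlap. Uqcrq, the ubiquinone-binding subunit VII of complex III, had 530.5, 553.7 and 446.4 CPM in high Apoa1 wells and 375.1, 442.7 and 317.5 CPM in Kit wells (1.35-fold, log2 0.43, SE 0.15, adjusted p 0.041). DESeq2 called 0 of the members, and leaving out EMP library 1 left 0 calls. With the lower threshold of 20 per 10000 the 4 libraries gave 44 calls, 24 nuclear higher, 8 nuclear lower and 12 mitochondrial higher. The shares of all genes above are for the threshold of 50 in 3 libraries. Those for the threshold of 20 are not given here, so the 44 calls cannot be set against all genes.

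Cdh5 wells of EMP libraries (31 wells, endothelial markers 13.6 to 26.1 per 10000, against 2.48 to 4.30 in Kit wells) had a mitochondrial sum of 1635 ± 153 and a nuclear sum of 143.6 ± 7.10 per 10000 (SD, n = 4), against 1418 ± 43.3 and 159.9 ± 7.38 in Kit wells. Their median totals were 6094 to 13420 transcripts, against 23736 to 38494 in Kit wells. Over all 7626 genes 6.88% passed, 4.08% higher and 2.81% lower, and members with an unadjusted p under 0.05 numbered 10 of 13 mitochondrial and 4 of 83 nuclear. Among members, mt-Nd6 rose, with 227.8, 99.0, 54.4 and 299.9 CPM in Cdh5 wells and 119.4, 96.6, 50.7 and 119.6 CPM in Kit wells (1.73-fold, log2 0.79, SE 0.23, adjusted p 0.023), and the assembly factor Ndufaf2 fell, with 2.6, 14.1, 13.6 and 34.3 CPM in Cdh5 wells and 33.2, 31.3, 44.3 and 48.7 CPM in Kit wells (0.310-fold, adjusted p 0.028). Both genes overlapped between the classes, and neither passed in DESeq2 or without EMP library 1.

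Globin-rich wells were few, and in A1/A2 libraries a threshold of 50 globin transcripts per 10000 gave 49 wells in 3 libraries, which were compared with the Cx3cr1 wells of the same libraries. The mitochondrial sum was 1504 ± 14.8 per 10000 and the nuclear sum 148.6 ± 8.25 in the globin-rich wells (SD, n = 3). All 13 mitochondrial genes were higher in the globin-rich wells, at 1.42-fold to 1.69-fold (the libraries of mt-Atp8 overlapped), and 1 of 82 nuclear members, Cox6b1, was higher (1.44-fold, adjusted p 0.047), where 12.3% of 7614 genes passed, 6.37% higher and 5.96% lower. The complex I gene mt-Nd5 had 13576, 11297 and 12841 CPM in globin-rich wells of libraries 2, 3 and 4 and 7689, 6834 and 7830 CPM in Cx3cr1 wells of the same libraries, without overlap (log2 0.75, SE 0.08, adjusted p 2.07e-05). Endoderm markers summed to 148 to 179 per 10000 in globin-rich wells and 51.3 to 113 in Cx3cr1 wells, and macrophage markers to 1.49 to 5.20 in globin-rich wells and 11.8 to 17.3 in Cx3cr1 wells. Their part in the result was not tested. The globin-rich wells had median totals of 1822 to 3910 transcripts and the Cx3cr1 wells of 28888 to 40344. In A1/A2 library 3, 1 globin-rich well held 163751 of the 219327 transcripts of its 21 globin-rich wells. The globin-rich values of that library therefore rest mostly on a single well. Without wells above 3 times the median total, which left Cx3cr1 wells at medians of 3595 to 7599, 0 mitochondrial genes were higher and 1 was lower, where 11 of 945 genes were higher and 23 lower.

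**Figure D5:**
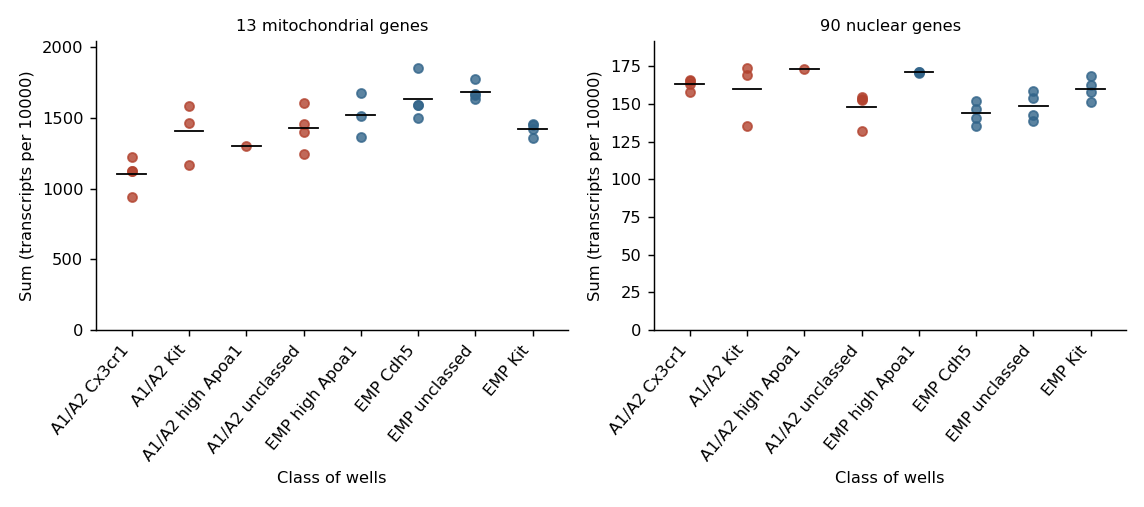
Mitochondrial and nuclear sums per 10000 transcripts by class of wells in libraries with at least 5 wells of the class; points are libraries and lines their means. Cx3cr1 wells of A1/A2 had 940 to 1224 mitochondrial transcripts per 10000 and Kit wells of EMP 1358 to 1453.

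Kit wells were also found in the A1/A2 libraries (25 wells, 3 libraries with at least 5), with a mitochondrial sum of 1405 ± 213 and a nuclear sum of 159.6 ± 21.0 per 10000. The Kit wells of EMP libraries lay within that range of 1168 to 1580. Within bins of total, pooled over libraries, Cx3cr1 wells of A1/A2 had 1989, 1512, 2103, 1931, 980 and 1080 mitochondrial transcripts per 10000 from 1000, 2000, 5000, 10000, 20000 and 50000 transcripts. Kit wells of EMP had 1853, 1861, 1439, 1331 and 1492 from 2000, 5000, 10000, 20000 and 50000, the lowest bins resting on 3 and 5 wells. The Cx3cr1 value was below the Kit value in the bins from 2000, 20000 and 50000 and above it in those from 5000 and 10000. Unclassed wells had 1425 ± 149 in A1/A2 and 1683 ± 61.9 in EMP libraries (SD, n = 4 each), without overlap, at median totals of 3427 in A1/A2 and 13967 in EMP.

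Other genes of the organelle were counted by list, chosen with earlier results known. Of 75 mitochondrial ribosomal protein genes, which translate the 13 mitochondrial messages, 25 rose and 0 fell in A1/A2 against EMP libraries (median log2 0.21, against -0.02 over all genes), where 17.3% of all genes were higher and 15.4% lower. In Cx3cr1 against Kit wells 20 rose and 1 fell, where 14.1% of all genes were higher and 9.83% lower. The further counts are for A1/A2 against EMP libraries, with the same shares of all genes. Mrpl20, of the large subunit, had 101.1 ± 13.05 CPM in A1/A2 and 51.4 ± 9.15 CPM in EMP libraries (log2 0.97, SE 0.14, adjusted p 0.00036). Of 22 tested genes for expression of the mitochondrial genome, 2 rose and 1 fell: Ssbp1, which binds single-stranded mitochondrial DNA, and Tfb2m, a transcription factor of mitochondria, rose (log2 0.48 and 0.63), and Tfam, which packages mitochondrial DNA and starts its transcription, fell, with 72.8 ± 4.58 CPM in A1/A2 and 93.0 ± 8.32 CPM in EMP (log2 -0.35, SE 0.10, adjusted p 0.017). Of 9 tested regulators, the nuclear receptor Esrra rose (log2 0.60, adjusted p 0.0064) and the coactivator Ppargc1a fell, with 4.88 ± 3.06 CPM in A1/A2 and 11.4 ± 2.76 CPM in EMP (log2 -1.18, SE 0.34, adjusted p 0.021). Of 21 complex IV assembly genes 2 rose and 2 fell, with Surf1 at log2 0.56 (adjusted p 0.0095). Of 15 genes of the tricarboxylic acid cycle 2 rose and 3 fell, with Pdhb of pyruvate dehydrogenase at log2 -0.56. Of 11 assembly genes of complexes I and II outside the symbols above, Ecsit rose (log2 0.53, adjusted p 0.013), and of 7 complex III partners with cytochrome c and 5 ATP synthase assembly genes 0 passed, with the smallest adjusted p at 0.18 for Cycs and 0.19 for Usmg5.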

How the data were processed

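Cells were prepared with mCEL-Seq2, per the labels' protocols, a method that counts molecules by identifiers near transcript 3' ends. The submitters' processing notes name BWA 0.6.2-r126 and Seurat without a role. Genome build and annotation: not given in the sources used here. The authors deposited estimated counts of transcripts (expected counts), unscaled, for each well: 100% of entries return whole identifier numbers, within 1e-06, once collisions among 4096 identifiers are undone. Among the mitochondrial members, at most 3081 identifiers (mt-Co2) were used in a well. This maximum does not cover other genes, such as mt-Rnr2.

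Wells of at least 1000 transcripts entered. Wells were sorted as single cells, and no doublet caller was run. Sums by library, or by class in libraries with at least 5 such wells, were rounded and tested with edgeR 4.0.16 (quasi-likelihood, robust, TMM, filterByExpr; R 4.3.3); p-values were Benjamini-Hochberg adjusted over all genes tested. SE is the absolute log2 fold change over the square root of F. Classes needed at least 1 transcript of Kit, Cx3cr1 or Cdh5, at least 500 globin or 50 Apoa1 transcripts per 10000. With these, 1 A1/A2 library had enough high Apoa1 wells and 0 had enough globin-rich wells, so the threshold of 20 was used for Apoa1 between the sorts, and a globin threshold of 50, chosen after seeing the data. Genes that set classes were left out of class tests. Comparisons among wells of the same libraries had library as a block, since both sums come from it.

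DESeq2 1.42.0, other filters, well selections and left-out libraries were tried as alternatives; the selection of wells of at least 20000 transcripts was chosen after seeing the data. Transcript copies were found with BLAST 2.17.0. The tests were checked on simulated counts. Members and lists were chosen with earlier results of these data known. Named are all mitochondrial members, paralogs, Sdha to Sdhd, the 5 most abundant nuclear members of each group and other pathway genes by list. Also named are up to 8 highest and 8 lowest nuclear members past 5% whose higher group averaged 20 CPM or more. Ndufb8, Atp5l and Atp5e (between the libraries) and Atp5j2 (Cx3cr1 against Kit wells) were named outside this rule. Not every gene of the rule is given with its value, such as Ndufa3 in Cx3cr1 against Kit wells.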

Additional observations from a re-analysis of the deposited data

Results flagged for a closer look

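Of 108 groups of 4 libraries examined for a value far from the others, 5 held one, and chance gives about 1 in 20. Among A1/A2 libraries, mt-Nd1 had 14423 CPM in library 3, the others 12595 to 12821, and mt-Nd3 had 3920 CPM in library 3, the others 3553 to 3599. Cox8a had 585 CPM in A1/A2 library 2, the others 532 to 541. Ndufa13 had 55.2 CPM in EMP library 3, the others 63.6 to 65.2. The summed level of Atp5s and Atp5sl was 0.432 per 10000 in 1 EMP library and 0.315 to 0.320 in the others.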

How the results depend on the processing

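Members called between A1/A2 and EMP libraries numbered 29, and 1 with wells thinned to 1000 transcripts, 10 in wells of 5000 to 50000 transcripts and 6 without wells of over 3 times the median total. For high Apoa1 wells of both sorts these settings gave 0, 5 and 1 in place of 22, and for Cx3cr1 against Kit wells 0, 8 and 2 in place of 24. Thinning left fewer transcripts and fewer genes tested. High Apoa1 against Kit wells of EMP gave 2 calls, 0 with DESeq2, 1 without a filter on low counts, 0 thinned, 9 at 5000 to 50000 transcripts, 10 without wells of over 3 times the median, 44 with an Apoa1 threshold of 20 and 10 with at least 2 transcripts for the Kit, Cx3cr1 and Cdh5 classes. Cdh5 against Kit wells gave 2, 0 with DESeq2, 1 with mitochondrial and globin genes left out of library sizes, 6 thinned, 1 at 5000 to 50000 transcripts, 11 without wells of over 3 times the median and 4 with at least 2 transcripts. Globin-rich against Cx3cr1 wells gave 14, 8 with DESeq2, 5 thinned, 1 without wells of over 3 times the median and 1 with mitochondrial genes left out, which by construction tests no mitochondrial gene. The same setting took mt-Nd6 out of the Cdh5 comparison by construction, where 1 nuclear member was still lower. The cause of the other changes was not tested.

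The difference of the nuclear sums, A1/A2 minus EMP, was 5.76 per 10000, and -6.02 as a mean over wells, -9.47 thinned, -10.8 at 5000 to 50000 transcripts and -7.00 per 10000 transcripts neither mitochondrial nor globin. The mitochondrial difference of -323 was -160 (-159.6), -175 (-174.8), -97.4 and -552 under these settings. The difference of the ratios, -2.43, was -0.41 thinned and 0.25 at 5000 to 50000 transcripts.

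Leaving out 1 library at a time gave 20 to 33 calls between the libraries, 11 to 25 for high Apoa1 wells of both sorts, 16 to 28 for Cx3cr1 against Kit wells, 0 to 3 for high Apoa1 against Kit wells, 0 to 2 for Cdh5 against Kit wells and 11 to 14 for globin-rich wells. The sums differed by 2.26 to 8.88 (nuclear) and -357 to -290 (-289.5, mitochondrial) per 10000 and the ratio by -2.71 to -2.21.

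With the replicate block 48 members passed between A1/A2 and EMP libraries, 29 nuclear members higher and 8 lower and 1 mitochondrial member higher and 10 lower. The share of all genes passing in the blocked fit is not given here, so this count cannot be read as a result about the members. The sample titles put each number on 1 library of each sort and do not say what it marks. Deviations of same-numbered libraries correlated at 0.23, 0.41, -0.02 and 0.23. As library 3 did not correlate with its own number, the main fit was left unblocked. A pairing by number was not excluded. As a hint from the data only, A1/A2 libraries 1, 2 and 4 correlated best with their own number and library 3 with EMP library 4. In the comparisons within the same libraries, no replicate block gave 1 call for high Apoa1 and 0 for Cdh5 wells.

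Log2 fold changes that turned sign without wells of over 3 times the median total were, between the libraries, mt-Co1 0.42, mt-Co2 0.52, mt-Cytb 0.64, mt-Nd1 0.44, mt-Nd2 0.36, mt-Nd3 0.51, mt-Nd4 0.58, mt-Nd5 0.50 and Cox7a2 -0.038. In Cx3cr1 against Kit wells they were mt-Co2 0.73, mt-Cytb 0.79, mt-Nd1 0.64, mt-Nd2 0.56, mt-Nd3 0.57, mt-Nd4 0.71, mt-Nd5 0.59, Ndufb10 -0.23 and Ndufa3 -0.23, and in high Apoa1 wells Ndufb2 -0.11 and mt-Nd5 0.076. In globin-rich wells they were mt-Atp6 -0.39, mt-Atp8 -0.87, mt-Co1 -0.51, mt-Co2 -0.36, mt-Co3 -0.55, mt-Cytb -0.21, mt-Nd1 -0.38, mt-Nd2 -0.29, mt-Nd3 -0.34, mt-Nd4 -0.12, mt-Nd4l -0.23 and mt-Nd6 -0.33. At 5000 to 50000 transcripts the libraries gave mt-Co1 0.092, mt-Co2 0.024, mt-Cytb 0.019, mt-Nd3 0.040 and mt-Nd4 0.0066, and Cdh5 wells mt-Nd6 -0.42. Thinned, mt-Cytb was 0.019 between the libraries and mt-Atp8 -0.37 in globin-rich wells. The cause was not tested.

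An Apoa1 threshold of 100, globin thresholds of 500 and 2000, and globin-rich wells of 5000 to 50000 transcripts left too few libraries and were not run. The depth of A1/A2 wells limits what the shallow settings can show.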
